A study of Mus musculus with 6 samples.

Results

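The 10 genes described here serve cellular defence against oxidants: Nfe2l2, Slc7a11, Hmox1, Nqo1, Gclc, Gclm, Srxn1, Txnrd1, Gsr and Prdx1. They were taken by name from the array's platform annotation, which gave them 11 probe sets with a single gene symbol, of 23410 probe sets tested and 35557 in the whole table. Probe sets with a single symbol named 19938 genes in all. Prdx1 had 2 probe sets and each other gene had 1. The cells were primary microglia, the resident macrophages of the brain, from the cerebral cortex of mouse pups aged 2 days. They were grown for 10 days, collected, replated for 24 h and harvested, and no further treatment is named in the labels.

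There were 3 arrays of fosB-null microglia (G/G in the labels), from mice homozygous for the null allele fosBG, and 3 of wild-type microglia from C57BL/6J mice. The mutant line had been backcrossed to C57BL/6J to generation 20 before its carriers were intercrossed, so by the labels both groups have that background. Whether this also holds for the DNA close to the targeted gene was not tested. The labels give the wild-type source as C57BL/6J mice and do not call them littermates. They also do not say how many pups went into a culture. Fosb encodes FosB, a subunit of the transcription factor AP-1. Its own probe set had log2 signals of 7.82, 8.05 and 7.83 in fosB-null arrays 1, 2 and 3, against 8.01, 8.14 and 7.92 in wild-type arrays. It is not known here whether that probe set reads the altered part of the allele, and these values therefore do not test the genotype labels.

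NRF2, the product of Nfe2l2, is a transcription factor that is held in the cytoplasm and degraded through KEAP1 until oxidants or electrophiles modify KEAP1. Freed NRF2 pairs with small MAF proteins on antioxidant response elements and raises enzymes of glutathione, thioredoxin and haem metabolism. The cystine-glutamate exchanger encoded by Slc7a11 brings in cystine for glutathione and releases glutamate in return, a step known in activated microglia.

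The deposited values are log2 signals, 1 per probe set and array, so a difference of 1 is a doubling. Differences below are fosB-null minus wild-type. Array medians ran from 7.76 to 7.92. The arrays were not independent across the groups: between 2 arrays of the same number, 45.2% to 51.3% of all probe sets had identical values, and between arrays of different number no more than 3 probe sets did. The step that gave these ties is not named in the labels, and a tie is not a measurement of equality. Among the 11 probe sets, 12 of 33 same-number comparisons were tied. In pairs 1, 2 and 3 that was 4, 3 and 5 of the 11, against 62.3%, 54.7% and 56% of all tested probe sets. A tied probe set counts as neither lower nor higher in its pair, so shares of all tested given below are held down by ties. Microglial markers varied in signal. Among the brightest of the 13 measured were Trem2 at 13.5 to 13.7, Csf1r at 13.4 to 13.5 and Cx3cr1 at 12.9 to 13.2. Others were lower, such as P2ry12 at 8.58 to 9.12 and Siglech at 7.32 to 7.53. Some markers of other cell types lay above those: the oligodendrocyte genes Cnp at 10.3 to 10.7 and Mbp at 9.62 to 10.1. The endothelial gene Flt1, at 10.2 to 10.6, did too. These were the brightest of their lists, whose other measured members had lower means. Among oligodendrocyte genes Cspg4 lay at 9.30 to 9.74, Mog at 7.32 to 7.47 and Olig2 at 6.84 to 7.24. The endothelial gene Cdh5 lay at 7.23 to 7.36. The astrocyte gene Gfap, at 7.08 to 7.24, was tied in all 3 pairs. The table holds no detection call.

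Stretches of promoter are shown because the genes are grouped by a shared regulator, and because AP-1 and NRF2 can bind overlapping letters. RefSeq promoter windows (build GRCm38.p6, 250 bases before to 50 after the start) were matched for 7 of the 10 genes, 9 windows in all. Positions are counted from the start as 1, with negative numbers upstream. The core of the antioxidant response element was searched as TGACNNNGC on both strands. It was present in 5 of the 9 windows, against 12.4% of all 32851 windows in the table. Each match is given with its flanks as 29 bases on the gene's strand, with the match in capitals.
Gclm, chr3:122245413-122245441, plus strand, match at -134 to -126: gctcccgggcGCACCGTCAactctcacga
Prdx1, chr4:116685456-116685484, plus strand, match at -133 to -125: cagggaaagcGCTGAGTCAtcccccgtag
Txnrd1 (second of 3 windows), chr10:82859104-82859132, plus strand, match at -92 to -84: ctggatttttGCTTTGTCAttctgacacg
Srxn1, chr2:152105542-152105570, plus strand, match at 29 to 37: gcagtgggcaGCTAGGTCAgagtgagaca
Nfe2l2, chr2:75704885-75704913, minus strand, match at -240 to -232: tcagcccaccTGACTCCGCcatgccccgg

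The AP-1 site TGACTCA, searched on both strands, was present in the windows of Srxn1 and Prdx1, against 5.20% of all windows. In Prdx1 one match lay at -237 to -231, and the other at -131 to -125 falls inside the antioxidant response element match printed above. Srxn1, which had the third largest difference in signal below, held 2 AP-1 matches in the 250 bases before its start, both read on the opposite strand and shown in capitals.
Srxn1, chr2:152105274-152105523, plus strand: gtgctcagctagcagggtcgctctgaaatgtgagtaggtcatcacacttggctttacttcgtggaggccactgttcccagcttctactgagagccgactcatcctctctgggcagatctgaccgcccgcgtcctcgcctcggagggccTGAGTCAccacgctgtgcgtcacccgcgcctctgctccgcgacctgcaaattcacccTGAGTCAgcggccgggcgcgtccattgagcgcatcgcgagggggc

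Slc7a11, which had the largest difference, held neither of these motifs in its window. After the sequence was seen, TGATGCAAA was also searched, the amino acid response element through which the transcription factor ATF4 is known to act on mouse Slc7a11. It matched at -66 to -58 on the gene's strand and at -48 to -40 on the opposite strand, both in capitals, and was present in 0.271% of all windows. A match is a run of letters, not a measured binding site.
Slc7a11, chr3:50443614-50443863, minus strand: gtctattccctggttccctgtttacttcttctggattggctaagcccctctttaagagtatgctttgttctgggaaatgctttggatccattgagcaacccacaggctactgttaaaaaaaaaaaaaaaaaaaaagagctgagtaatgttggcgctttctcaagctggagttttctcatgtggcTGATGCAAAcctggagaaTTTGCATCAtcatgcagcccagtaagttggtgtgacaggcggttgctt

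**Figure D1:**
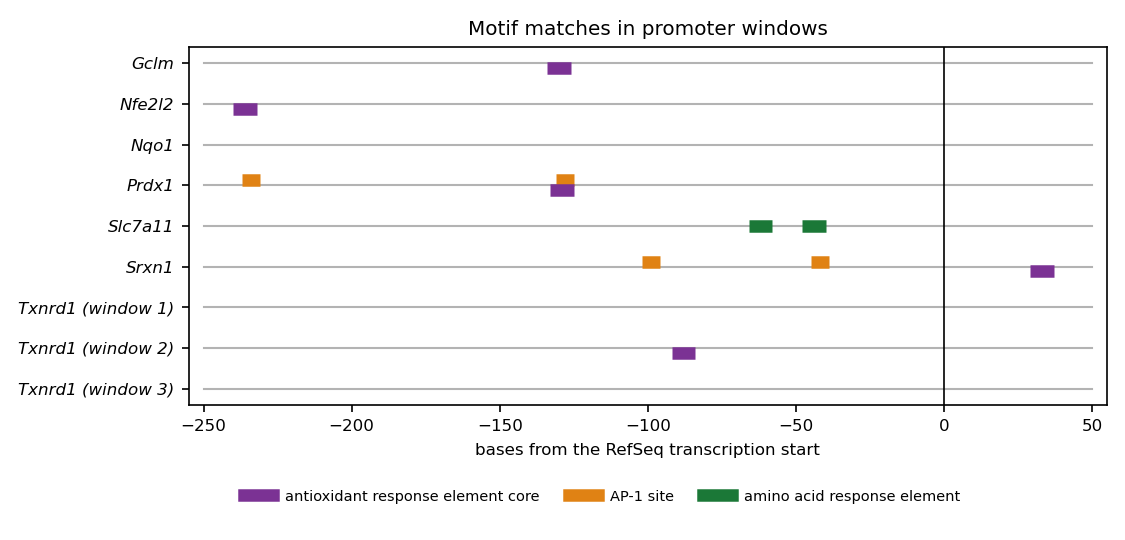
Matches to the 3 motifs in the 9 RefSeq promoter windows, 1 row per window, with distance from the transcription start in bases on the x axis. The antioxidant response element core is found in 5 windows, the AP-1 site in those of Srxn1 and Prdx1, and the amino acid response element only in that of Slc7a11 among these 9.

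None of the 10 genes passed the threshold of an adjusted p under 0.05 between fosB-null and wild-type microglia. The test was limma with Benjamini-Hochberg adjustment over the 23410 tested probe sets, of which it called 1, or 0.00427%. That call is C5ar2, a receptor for the complement fragment C5a. The same fit called 0 probe sets with the replicate number as a block and 47 with that number as a random block, and none of the 11 was among them in either. In the fit without a block, 1 of the 11 probe sets, that of Slc7a11, was lower in fosB-null arrays at an unadjusted limma p under 0.05. None was higher, against 0.453% lower and 0.269% higher of all tested probe sets, or 0.722% in either direction. With the random block 3 of the 11 were under that p, against 2259 of the 23410 tested: Srxn1 (0.00673), Gsr (0.0204) and Slc7a11 (0.0295). With the replicate number as a block 0 of the 11 were, against 541 of all tested. The groups did not overlap in 0 of the 11, against 1.12% of all tested. Mean signals were lower in fosB-null arrays for 8 of the 11 probe sets, higher for 2 and equal for 1, while 41.3% of all tested were lower and 30.9% higher. The median difference over the 10 genes was -0.07, against 0.00 over all tested probe sets. It was -0.03 without wild-type replicate 2, -0.12 without wild-type replicate 3 and -0.02 without both arrays of replicate 2. Less RNA per cell and fewer cells with that RNA cannot be told apart in such bulk samples.

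The transcript of the cystine exchanger had the largest difference in signal of the group. Slc7a11 had log2 signals of 7.56, 7.61 and 7.82 in fosB-null arrays 1, 2 and 3, against 8.10, 8.36 and 7.74 in wild-type arrays 1, 2 and 3. The fosB-null arrays lay close together, and wild-type array 3 lay inside their range, apart from the other two wild-type arrays. The mean was 7.66 ± 0.14 in fosB-null and 8.07 ± 0.31 in wild-type arrays (SD, n = 3 each). The table holds no detection call, so the signal of this probe set is not shown to be above background. The log2 difference of -0.40 (standard error 0.16) had a limma 95% interval of -0.79 to -0.02, and its p was 0.0421 unadjusted and 1 after adjustment. Within pairs 1, 2 and 3 the Slc7a11 difference was -0.54, -0.75 and 0.08. It was -0.57 without wild-type replicate 3 and -0.26 without wild-type replicate 2, and the limma adjusted p was at least 0.441 in every alternative fit run.

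Glutathione synthesis begins with glutamate-cysteine ligase, whose modifier subunit is encoded by Gclm and whose catalytic subunit is encoded by Gclc. Gclm had log2 signals of 11.63, 11.58 and 11.82 in fosB-null arrays, against 11.89, 12.23 and 11.70 in wild-type arrays. As with Slc7a11, wild-type array 3 lay within the fosB-null range, and the groups overlapped. The means were 11.68 ± 0.12 in fosB-null and 11.94 ± 0.27 in wild-type arrays (SD, n = 3 each), with a difference of -0.26, an interval of -0.61 to 0.08 and a limma adjusted p of 1. By pair it was -0.26, -0.65 and 0.12. Gclc, the catalytic subunit, was tied in pairs 1 and 3 and differed by -0.16 in pair 2. Its signals were 11.07, 11.07 and 11.13 in fosB-null arrays, against 11.07, 11.22 and 11.13 in wild-type arrays, an average difference of -0.05 with an interval of -0.22 to 0.12.

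Gsr encodes glutathione reductase, which restores reduced glutathione at the cost of NADPH. Its log2 signals were 10.23, 10.29 and 10.19 in fosB-null arrays, against 10.46, 10.65 and 10.19 in wild-type arrays. The values of array 3 were tied between the groups, and the other two wild-type arrays lay above every fosB-null array. The difference was -0.20 (standard error 0.12), with an interval of -0.48 to 0.09 (limma adjusted p of 1).

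Srxn1, Txnrd1 and Prdx1 belong to the thiol repair chain, in which peroxiredoxin 1 removes peroxides, sulfiredoxin 1 restores over-oxidised peroxiredoxins and thioredoxin reductase 1 keeps thioredoxin reduced. Srxn1 had log2 signals of 10.61, 10.49 and 10.39 in fosB-null arrays, against 10.86, 10.82 and 10.44 in wild-type arrays. It was lower in every pair, by -0.24, -0.33 and -0.05, yet wild-type array 3 fell within the fosB-null range. The means were 10.50 ± 0.11 in fosB-null and 10.71 ± 0.23 in wild-type arrays (SD, n = 3 each). The difference of -0.21 had an interval of -0.51 to 0.09 and a limma adjusted p of 1.

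Txnrd1 was tied in pairs 1 and 3 and differed by -0.16 in pair 2, with 10.41, 10.36 and 10.42 in fosB-null arrays against 10.41, 10.53 and 10.42 in wild-type arrays. The groups therefore differed by 1 pair, an average of -0.05 with an interval of -0.22 to 0.11. The platform table links both Prdx1 probe sets to the same accessions, and which part of the gene or of a near-identical copy each one reads is not known here. Probe set 10436048 was tied in pairs 1 and 2 and differed by 0.01 in pair 3, around means of 13.03 in both groups. Probe set 10507328 had 12.93, 12.998 and 12.79 in fosB-null arrays, against 12.82, 12.98 and 12.77 in wild-type arrays, a difference of 0.05 with an interval of -0.17 to 0.26. It was the only probe set of the 11 that was higher in all 3 pairs, as were 2.2% of all tested. Those lower in all 3 pairs were Srxn1 and Hmox1, 2 of the 11, against 5.57% of all tested.

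Hmox1 encodes haem oxygenase 1, which opens haem into biliverdin, iron and carbon monoxide, and Nqo1 encodes a quinone reductase. Hmox1 had log2 signals of 13.17, 13.03 and 13.04 in fosB-null arrays, against 13.17, 13.25 and 13.07 in wild-type arrays. Only pair 2, at -0.22, differed by more than 0.05, and the average difference of -0.09 had an interval of -0.28 to 0.11. Nqo1 was tied in all 3 pairs, at 6.26, 6.30 and 6.52 in fosB-null and in wild-type arrays, as were 27.8% of all tested probe sets. Nfe2l2 itself, the gene of NRF2, had 12.96, 13.03 and 12.79 in fosB-null arrays, against 13.02, 13.03 and 12.79 in wild-type arrays. It was tied in pairs 2 and 3 and differed by -0.06 in pair 1, with an interval of -0.26 to 0.22 for the average of -0.02. NRF2 is controlled mainly at the protein level, which these arrays do not measure.

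**Figure D2:**
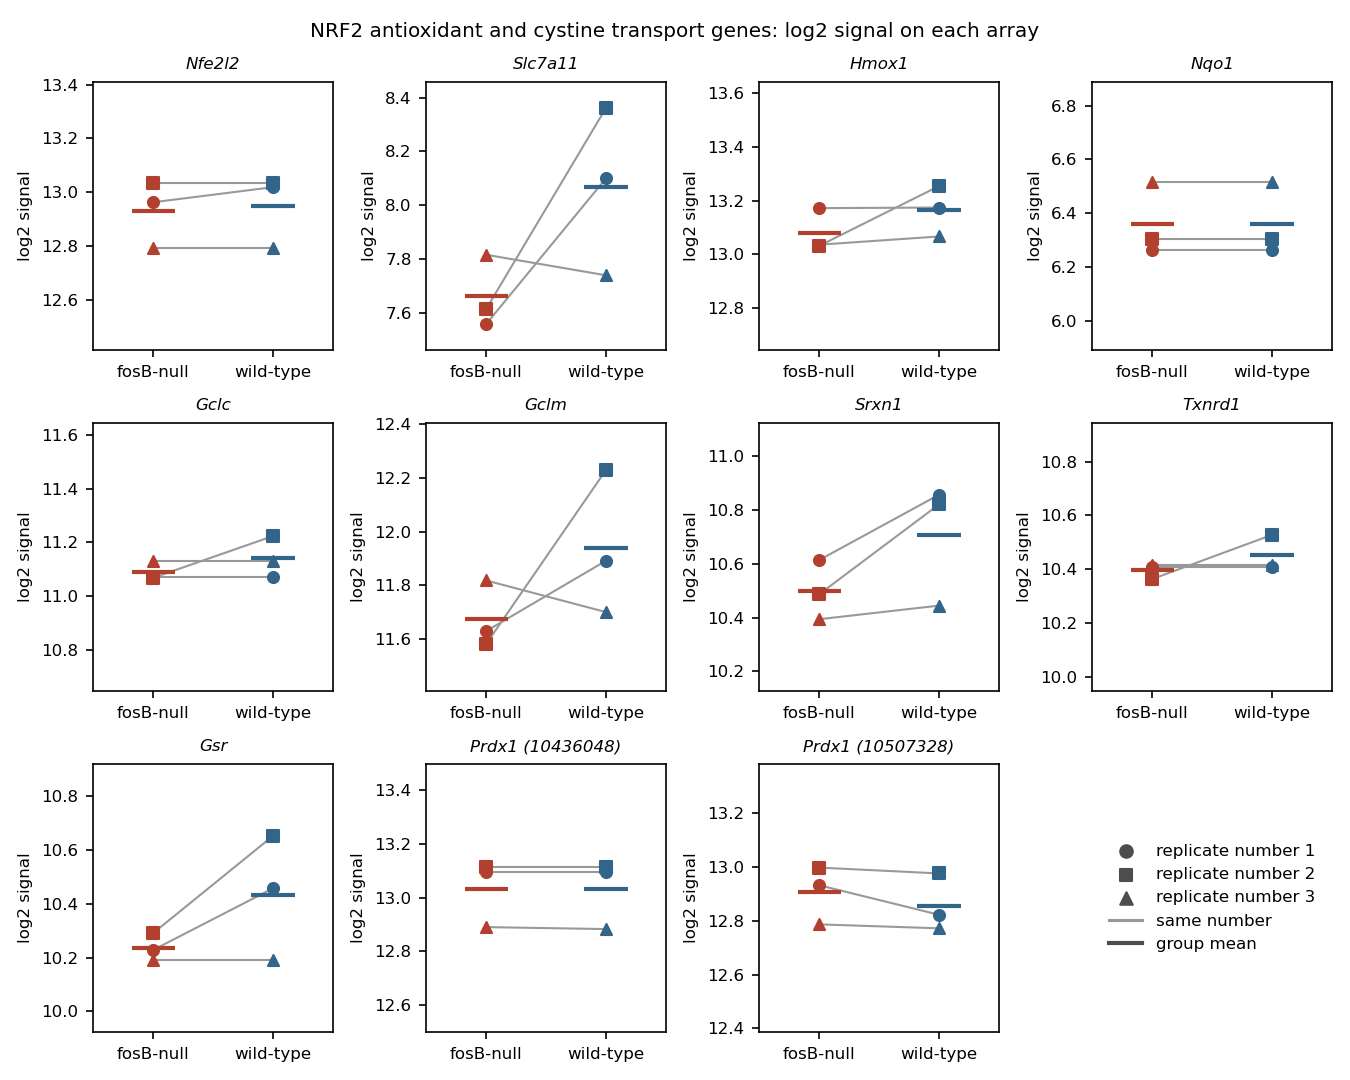
Log2 signal of the 11 probe sets on each of the 6 arrays, with fosB-null arrays on the left of each panel, wild-type arrays on the right, lines between same-numbered arrays and bars at group means. All panels span 1 log2 unit. For Slc7a11, Gclm, Srxn1 and Gsr, wild-type arrays 1 and 2 lie above all 3 fosB-null arrays and wild-type array 3 does not.

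The differences of Slc7a11, Gclm, Srxn1 and Gsr came mainly from pairs 1 and 2. Over the 10 genes, the median difference was -0.03, -0.19 and 0.00 and the mean difference -0.13, -0.26 and 0.01 in pairs 1, 2 and 3. By the median, pair 2 stood furthest from 0. In both of the first pairs 5 of the 11 probe sets were lower in fosB-null arrays, a count chosen after the values were seen, against 10.4% of all tested. Ties hold that share down, since the 11 were tied less often than all tested in both pairs. The count also includes Hmox1, at -0.0023 in pair 1. Averaged over the 10 genes, the log2 signal was 10.70, 10.69 and 10.70 in fosB-null arrays, against 10.83, 10.95 and 10.69 in wild-type arrays, so wild-type array 3 was at the level of the fosB-null arrays. Without both arrays of replicate 3, a fit chosen after the data were seen, Slc7a11 differed by -0.65, Gclm by -0.45, Gsr by -0.30 and Srxn1 by -0.29. Their limma unadjusted p was 0.00684, 0.0366, 0.0410 and 0.0216, and their adjusted p was 1. In that fit 263 of the 23410 tested probe sets had a limma unadjusted p under 0.05. Without both arrays of replicate 1, also added, Slc7a11 differed by -0.34, Gclm by -0.26, Gsr by -0.18 and Srxn1 by -0.19. The lowest unadjusted limma p among the 11 probe sets was then 0.240. Without both arrays of replicate 2, likewise added, Slc7a11 differed by -0.23, Gclm by -0.07, Gsr by -0.11 and Srxn1 by -0.15, with a lowest unadjusted limma p of 0.255 among the 11 probe sets. Without wild-type replicate 2 alone, Gclm differed by -0.12 and Gsr by -0.09.

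**Figure D3:**
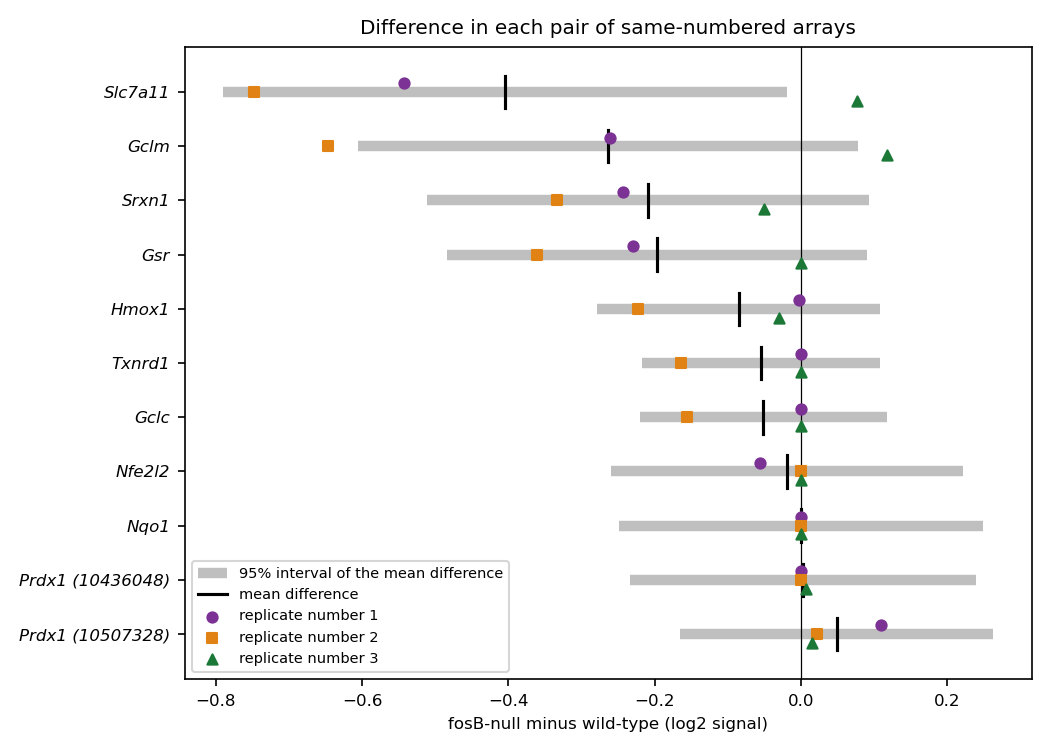
Difference in log2 signal, fosB-null minus wild-type, for each of the 11 probe sets on the x axis. Points are the 3 pairs of same-numbered arrays, black ticks the mean difference and grey bars its limma 95% interval. The intervals are those of the fit without a block. Only the interval of Slc7a11, -0.79 to -0.02, does not include 0, and pair 3 lies at or near 0 for most genes.

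The average of a proliferation list differed in the same pairs. This list of 10 genes was chosen with earlier results of these data known. Its 9 measured members all had a higher mean in fosB-null arrays, against 30.9% of all tested probe sets. Of the 9, 0 passed the adjusted threshold and 3 had an unadjusted limma p under 0.05, against 0.269% of all tested in that direction. The list's average log2 signal was 9.77, 10.53 and 9.76 in fosB-null arrays, against 8.75, 9.44 and 9.76 in wild-type arrays, a difference of 1.02, 1.09 and -0.01 by pair. Markers of the oligodendrocyte lineage, 9 measured, differed on average by -0.14, -0.09 and 0.01, with list averages of 8.22 to 8.38 in fosB-null and 8.23 to 8.47 in wild-type arrays. The median difference of the oligodendrocyte list was 0.00 in every pair. By mean, 5 of its genes were lower, 1 higher and 3 equal. Mbp differed by -0.32, -0.24 and -0.06, Cspg4 by -0.36, -0.43 and 0.20, and Mag by -0.46 in pair 1 only. Cnp, Olig1 and Sox10 were tied in all 3 pairs. Fibroblast and mural markers, also 9, differed on average by 0.09, 0.10 and -0.03, with list averages of 7.36 to 7.57 in fosB-null and 7.28 to 7.46 in wild-type arrays. Within that list Postn, a matrix protein gene, differed by 0.69, 0.67 and -0.57, and the list medians were 0.00, 0.02 and 0.00. The 13 measured microglial markers differed by 0.12, 0.02 and 0.04, and 7 of 10 astrocyte markers were tied in all 3 pairs. What part any of these has in the differences of the 10 genes was not tested.

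Around these genes, 113 further measured genes of 8 lists were compared, and 0 passed the adjusted threshold. At an unadjusted limma p under 0.05 there were 2 lower and 1 higher, against 0.453% and 0.269% of all tested probe sets. The groups did not overlap for 2 lower genes, Mgst1 and Pgls, and 1 higher gene, Phgdh, against 1.12% of all tested in either direction. Mean signals were lower in fosB-null arrays for 69 of the 113, higher for 27 and equal for 17, with a median difference of -0.01.

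Glutathione synthesis and use was the list with the most even direction. Of its 24 measured genes, 22 had a lower mean in fosB-null arrays, 0 a higher one and 2 an equal one, with 0 past the adjusted threshold and a median difference of -0.04. Mgst1, a microsomal glutathione transferase of membranes, had log2 signals of 10.61, 10.48 and 10.56 in fosB-null arrays, against 10.91, 11.15 and 10.75 in wild-type arrays. Its groups did not overlap, and unlike Slc7a11 it was lower in all 3 pairs, by -0.30, -0.67 and -0.19 (limma unadjusted p of 0.0106, adjusted p of 1). The cytosolic glutathione transferases Gstm1 and Gstm4 differed by -0.20 and -0.15. Gss, which completes glutathione after the ligase step, was tied in all 3 pairs.

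The NRF2 control list held 12 measured genes, of which 10 had a lower mean, 0 a higher one and 2 an equal one. Mafk, a small MAF partner of NRF2, differed by -0.17, Bach1, a repressor at antioxidant response elements, by -0.06 and the KEAP1-binding autophagy receptor gene Sqstm1 by -0.04. Keap1 itself was tied in pairs 1 and 2 and differed by -0.09 in pair 3. These differences were smaller than their standard errors.

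Partners in amino acid supply showed no common direction, with 3 of 12 genes higher, 4 lower and 5 equal. Slc3a2, the heavy chain that pairs with the Slc7a11 product, had log2 signals of 13.26, 13.30 and 13.15 in fosB-null arrays, against 13.28, 13.41 and 13.19 in wild-type arrays. Slc1a5, a neutral amino acid transporter, differed by -0.15, Slc7a5, a large neutral amino acid transporter, by 0.09, and Chac1, which degrades glutathione, by -0.05. Slc1a5 and Fosb share a chromosome, at a distance of 59 measured genes, whereas none of the 10 genes lies on that chromosome.

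ATF4 response genes, of which Slc7a11 is a known one, also went both ways, with 5 of 15 higher, 7 lower and 3 equal. Phgdh, the first enzyme of serine synthesis, was opposite to Slc7a11, with log2 signals of 8.43, 8.82 and 8.54 in fosB-null arrays, against 8.05, 8.31 and 8.31 in wild-type arrays. The groups did not overlap, and the difference of 0.37 had a limma p of 0.0230 unadjusted and 1 adjusted. The stress-induced gene Nupr1 differed by -0.18 and Mthfd2, of mitochondrial folate metabolism, by -0.17. Atf4 itself had a difference of -0.12, or -0.10, -0.23 and -0.02 by pair.

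In the thioredoxin and peroxiredoxin list 7 of 14 genes had a lower mean, 5 a higher one and 2 an equal one. Selenow, a small selenoprotein, differed by -0.29 (limma unadjusted p of 0.0297, adjusted p of 1), and lies 81 measured genes from Fosb. The methionine sulfoxide reductases Msrb1 and Msra differed by -0.12 and -0.08. Of 9 NADPH supply genes, 5 were lower, 3 higher and 1 equal: the pentose phosphate enzymes Taldo1 and Pgls differed by -0.18 and -0.10, and the isocitrate dehydrogenase Idh1 by -0.10.

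Haem and iron genes were split evenly, with 7 of 13 higher and 6 lower. The transferrin receptor gene Tfrc differed by 0.14, Blvra, which reduces the biliverdin made by haem oxygenase, by 0.12 and the haem transporter gene Slc48a1 by -0.09. Among 16 dismutase, catalase and other detoxification genes, 9 were lower, 5 higher and 2 equal. The epoxide hydrolase gene Ephx1 differed by 0.26, by 0.63, 0.23 and -0.07 in the pairs, the metallothionein gene Mt2 by -0.20 and the mitochondrial dismutase gene Sod2 by -0.13.

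**Figure D4:**
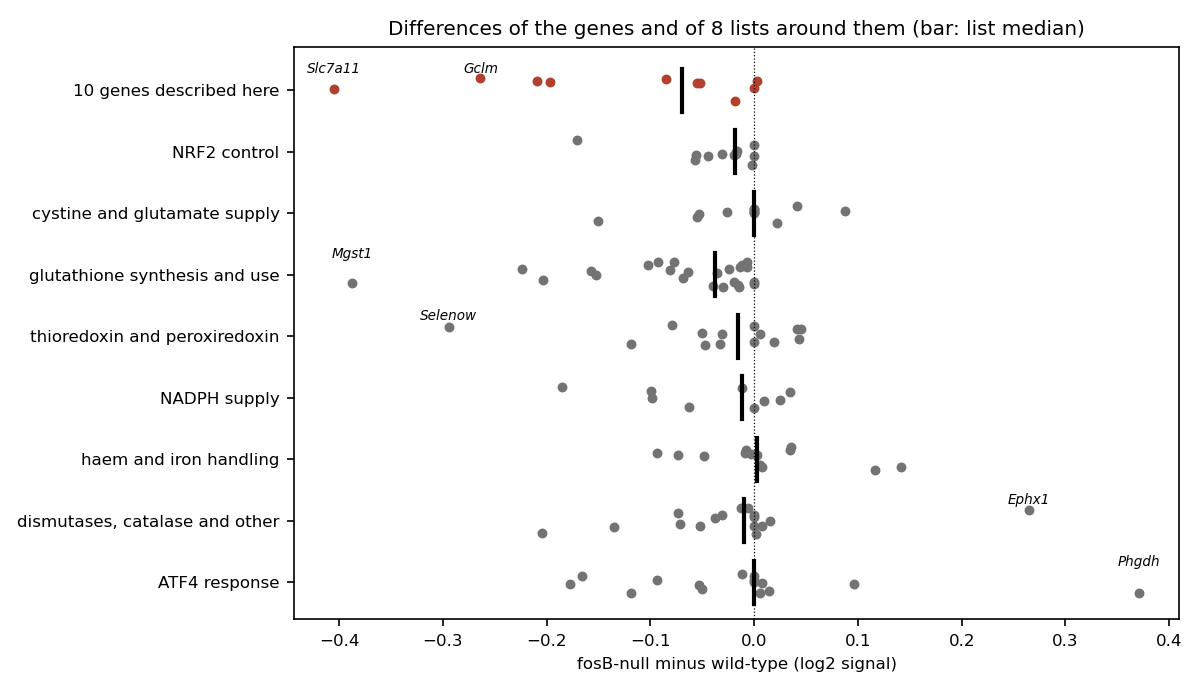
Difference in log2 signal, fosB-null minus wild-type, for the 10 genes in red and for the genes of 8 lists around them in grey, with a bar at each list's median. Mgst1 at -0.39 and Phgdh at 0.37 are the outermost of the grey points, and the glutathione list lies at or below 0 throughout.

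The signals most like that of Slc7a11 over the 6 arrays were ranked by Pearson correlation among 17070 genes. This is a description, since same-numbered arrays share many values. They were Akr1b8, an aldo-keto reductase (r = 0.992), Morn2 (0.989), Sparc, a matrix-associated glycoprotein (0.983), Pla2g7, which degrades platelet-activating factor (0.973), and Slc22a4, a transporter of ergothioneine (0.972). Akr1b8 had log2 signals of 8.95, 9.06 and 9.29 in fosB-null arrays, against 9.53, 9.99 and 9.17 in wild-type arrays, with wild-type array 3 again inside the fosB-null range. Of the 10 genes, Gclm was nearest to Slc7a11, at rank 10 (r = 0.968), followed by Gsr at rank 57 (r = 0.895). Nfe2l2 (r = 0.335), Prdx1 (0.238) and Nqo1 (-0.182) were least like it.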

How the data were processed

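RNA (100 ng per sample) of 6 microglial cultures was hybridised to Affymetrix whole-transcript arrays. The authors deposited log2 signals. Per the submitters' processing notes they used Affymetrix Expression Console; the sources used here do not give how probes were summarised or arrays normalized. Values from 1.73 to 14.6 gave the log2 scale. The platform table gave 1 gene symbol to 21789 probe sets and several to 1621. Symbols were updated through RefSeq (GRCm38.p6), used for names, gene order and promoters. For lists, the probe set with the highest mean stood for a gene.

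The comparison used limma 3.58.1 (lmFit, eBayes, two-sided; R 4.3.3) on these values, unblocked, adjusted over 23410 probe sets. The fit was run on simulated arrays that were independent and held no ties. That run therefore does not test the fit under the shared values of these arrays. Same-numbered arrays deviated from their group means together (r = 0.80, 0.61 and 0.65 over probe sets untied in that pair). The group means also hold values tied in the other pairs, which can itself give such r. Same-numbered arrays are therefore called pairs for their shared values only. The labels do not say whether the samples were paired. The number of arrays limits the precision, and p-values measure the spread between these arrays only.

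Named genes are the 10 genes, Fosb, the 3 of lowest p per list, the 5 most like Slc7a11 (predicted genes, Gm and Rik names, chemosensory receptors and small RNAs passed over) and cell type markers. Gss, Keap1, Slc3a2, Atf4 and the proliferation list were added after values were seen. Members and lists were chosen with earlier results of these data known.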

Additional observations from a re-analysis of the deposited data

How the results depend on the processing

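Alternatives were quantile normalization, median centring, an intensity trend in the prior, testing all or only single-symbol probe sets, leaving out the dimmest 40%, no moderation, the replicate block, a random replicate block, leaving out each array and, added after the data were seen, leaving out both arrays of a number. None of the 11 probe sets and 0 of the 113 further genes passed the adjusted threshold in any of them, with Nqo1 left untested when the dimmest were left out. The Slc7a11 difference stayed below 0 throughout, from -0.65 to -0.23 with arrays left out and at -0.40 with the replicate block (limma adjusted p of 0.674). Probe sets called over all tested numbered 0 without moderation (104 at an unadjusted p under 0.05), 0 with the replicate block (541), 47 with the random replicate block and 0 to 2 with arrays left out, against 1. The number of the 11 whose groups did not overlap was 1 after median centring and 0 to 5 with arrays left out, against 0. It was 5 without wild-type replicate 3 or without both arrays of replicate 3. Groups of fewer arrays overlap less often in any probe set. The share over all tested probe sets was not counted in these settings, so these counts have no background beside them. The Nfe2l2 difference ranged from -0.097 to 0.050 with arrays left out and was above 0 without fosB-null replicate 3 or wild-type replicate 1 or 2. Probe set 10436048 of Prdx1 turned to -0.0079 with quantile normalization and -0.021 with median centring, and ranged from -0.071 to 0.074 with arrays left out, below 0 without fosB-null replicate 1 or 2 or wild-type replicate 3. The cause was not tested. Other scaling moved the median of all tested probe sets by 0.02 at most.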
